A study of Mus musculus with 69 samples.

Results

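Gene expression in the lung was compared between the highest and the lowest dose of titanium dioxide nanoparticles 1 day after exposure. The comparison held 20 of the 69 arrays of the series, which were chosen by their labels alone. In this set, 10 mice had received 162 µg and 10 had received 18 µg, and each dose was made up of 5 mice given NRCWE-001 and 5 given NRCWE-002. NRCWE-001 is the unmodified particle without a surface charge, and NRCWE-002 is positively charged. The particles were given once by instillation into the trachea, and RNA was taken from a piece of the frozen lung. Every mouse had the C57BL/6 background and had an array of its own, and the age and sex of the mice are not given in the sources used here. The 10 arrays at 54 µg and the 5 arrays of mice given the vehicle, water, on day 1 entered none of the 162 against 18 µg tests and serve below as levels beside them and as a separate comparison. The 20 arrays at 162 and 18 µg on day 28 are used for the comparison of the days.

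Particles that reach the alveoli are taken up by macrophages, and macrophages and epithelial cells answer with cytokines such as interleukin-1 and with chemokines that draw neutrophils and monocytes out of the blood. Acute phase proteins, best known as products of the liver, are also made in the lung during such inflammation, with serum amyloid A among the most inducible. Many of these genes are driven by the transcription factor NF-kB, while cells with a high load of secreted protein raise the chaperones of the endoplasmic reticulum through the unfolded protein response.

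Each value is the log2 ratio of lung RNA, labelled with Cy5, to a commercial mouse reference RNA, labelled with Cy3. A level therefore describes a gene against the reference and not against other genes, and a log2 difference of 1 between doses is a 2-fold change. The share of spots well above background in the lung channel ran from 62.5% to 73.3% at 162 µg and from 62.5% to 85.3% at 18 µg, and 0 spots were saturated. The arrays lay on 11 slides scanned on 9 days, and 7 of these slides held both doses. The highest shares of spots above background, 83.9% to 85.3%, were at 18 µg in NRCWE-002 replicates 2 and 3 and NRCWE-001 replicate 5. Their slides were scanned on the same day and held no 162 µg array of this comparison. Leaving these arrays out together was not tried. Lung markers were well above background on all 20 arrays, with a log2 ratio of 6.66 to 7.73 for Sftpc (surfactant protein C of alveolar type 2 cells), 5.68 to 7.51 for Scgb1a1 (club cells), 5.27 to 5.95 for Ager (alveolar type 1 cells) and 5.94 to 7.00 for Cldn5 (endothelium).

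Of the 10 arrays at 162 µg, 2 stood apart in genes with the largest differences between the doses. Saa3 (serum amyloid A3) had a log2 ratio of 3.34 to 5.02 on 8 of them, but of -3.74 in NRCWE-001 replicate 5 and of -0.65 in NRCWE-002 replicate 5. The first of these values lies within the range of the vehicle arrays, -3.95 to -3.19. At 54 µg, which takes no part here, replicates 4 and 5 of NRCWE-001 were likewise at -3.78 and -4.16. Both low arrays at 162 µg were kept, since nothing in the labels sets them apart. Results that rest on them are also given without them. They were picked for low values in genes such as Saa3, after the data were seen. A larger difference and a smaller SE of such genes without them follow from that choice and are no further evidence.

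At 162 µg, 1852 of 15803 genes tested (11.7%) differed from 18 µg with both particles pooled and the particle as a term (limma, adjusted p below 0.05). Of these genes 1183 (7.49% of those tested) were higher and 669 (4.23%) were lower at 162 µg, and all 1852 had the same sign within each particle. Most of the differences were small. The median absolute log2 difference of the called genes was 0.29, 1668 of them were under 1.5-fold, and 46 higher genes and 3 lower genes passed 2-fold. The median over all genes tested was -0.01. With both low arrays left out, 2763 genes were called, 1782 of them shared with the 1852. With the slide as a fixed block 1124 genes were called, 882 of them shared, and a fit of all 69 arrays called 1029. With the scan day as a fixed block 1624 genes were called, 1204 of them shared.

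Acute phase genes showed the largest differences of all. Of the 12 called genes with the largest increase, 6 (Saa3, Saa1, Lcn2, Orm2, Saa2 and Orm1) were acute phase genes. Saa3 ran from -3.74 over a median of 3.98 to 5.02 at 162 µg, from -3.62 over -2.64 to -0.45 at 18 µg, and from -3.95 over -3.54 to -3.19 with vehicle. Except for both low arrays, every array at 162 µg lay above every array at 18 µg. The log2 difference was 5.29 ± 0.88 (SE, n = 10 arrays per dose, 39.2-fold, adjusted p = 0.00095), and it was 6.55 ± 0.33 (93.7-fold) without the low arrays.

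Saa1 and Saa2 encode the circulating serum amyloid A proteins. Saa1 ran from -0.86 over 3.86 to 4.89 at 162 µg and from -0.88 over -0.46 to -0.20 at 18 µg, a log2 difference of 3.65 ± 0.59 (12.5-fold, 23.3-fold without the low arrays). Its 2 probes differed in size, with log2 differences of 2.87 and 4.42. For Saa2 the range was -0.01, 3.27 and 3.65 (lowest, median and highest) at 162 µg against -0.11, -0.01 and 0.27 at 18 µg, a difference of 2.66 ± 0.39 (6.32-fold). At 18 µg both genes thus stayed within a narrow band, while the 162 µg arrays spread from that band to more than 3 log2 units above it.

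Lcn2 (lipocalin 2, which binds bacterial iron carriers) had log2 ratios of 0.91, 4.62 and 4.87 at 162 µg and of 0.81, 1.27 and 2.06 at 18 µg, and the difference was 2.73 ± 0.41 (6.65-fold, 9.96-fold without the low arrays). The orosomucoids, plasma proteins that carry drugs and lipids, followed. Orm2 was at 0.36, 3.21 and 4.14 against -0.15, 0.14 and 0.57 (2.70 ± 0.39, 6.52-fold), and Orm1 was at -0.09, 2.30 and 3.50 against -0.27, -0.07 and 0.18 (2.18 ± 0.35, 4.52-fold). At 18 µg Orm1 was well above background on 5 of 10 arrays and Orm2 on 7 of 10, so that these folds rest partly on values near background. Over the other settings of the processing the log2 difference ran from 2.42 to 4.70 for Orm2 and from 1.91 to 4.34 for Orm1.

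Serpina3m, a serine protease inhibitor, was the acute phase gene with the smallest p. All 10 arrays at 162 µg, 2.39 to 3.91, lay above all 10 at 18 µg, 1.21 to 2.27, both low arrays included. Its log2 difference was 1.49 ± 0.15 (2.80-fold, adjusted p = 2.4e-05). Groups that did not overlap were rare among all genes tested, at 47 of 15803 (0.297%), of which 33 were higher (0.209%) and 14 lower (0.0886%). Hpx (hemopexin, the haem carrier of plasma) was at 0.27, 1.69 and 1.95 against -0.13, 0.11 and 0.52, a difference of 1.32 ± 0.18 (2.50-fold).

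In the acute phase list, 14 of 19 measured genes were called higher and 0 lower, with a median log2 difference of 1.32 beside -0.01 over all genes. Other called members, named after their values were seen, were Serpina3n (1.38), Cp (ceruloplasmin, 1.33), Itih4 (0.85), Orm3 (0.63), Saa4 (0.49) and Hp (haptoglobin, 0.40). The 5 that did not pass were Lbp (0.20), Fgg (0.60), Crp (-0.06), Apcs (-0.02) and Fgb (0.06). The count stayed at 14 without the low arrays and was 13 with the slide as a block.

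**Figure D1:**
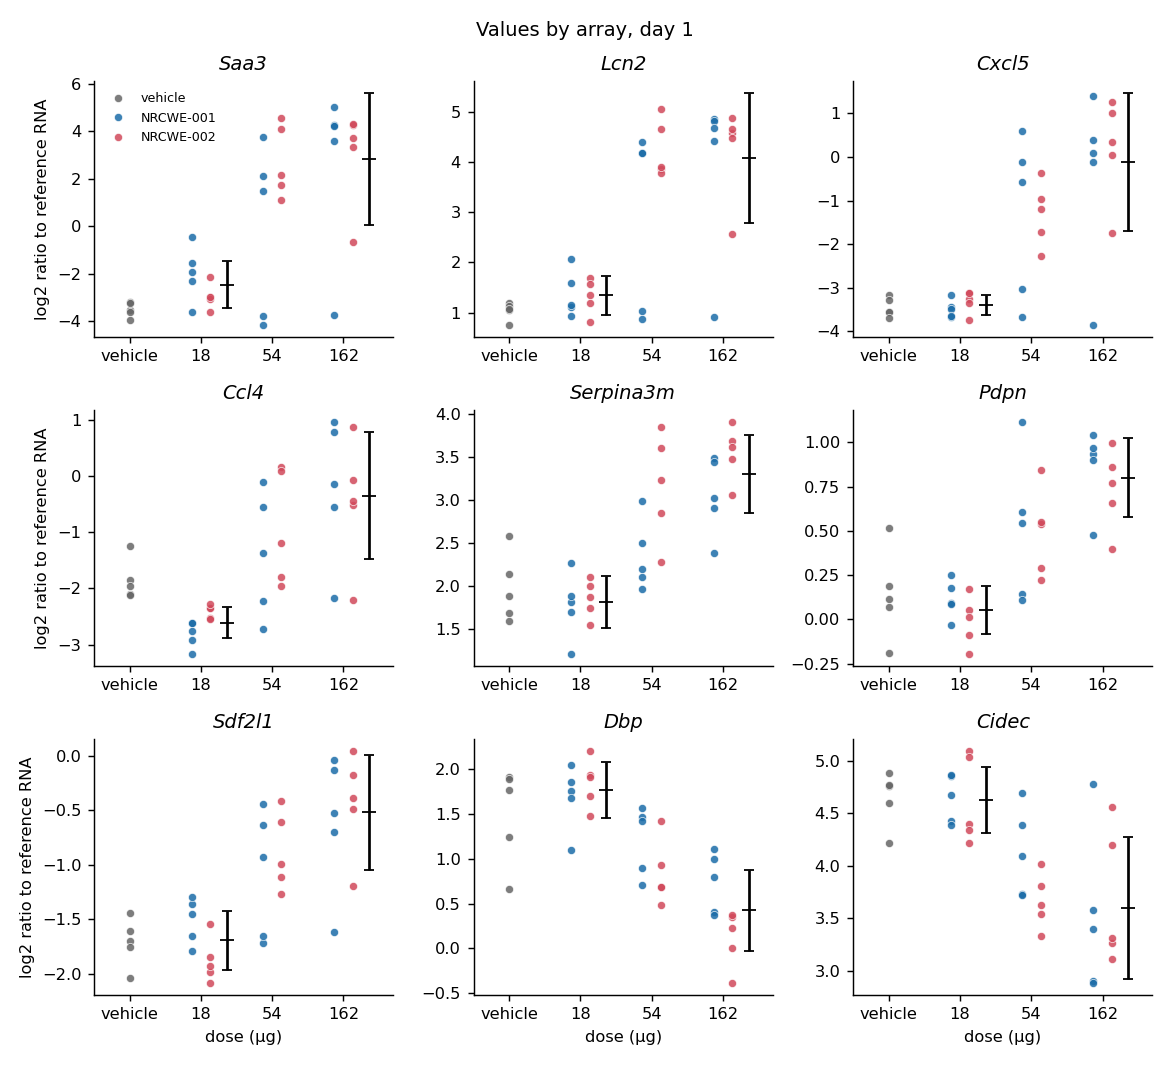
Log2 ratio to the reference RNA (vertical axis) on each day 1 array for 9 genes, by dose in µg (horizontal axis). Points are single mice (grey vehicle, blue NRCWE-001, red NRCWE-002) and black bars give the mean ± SD of the 10 arrays at 18 and at 162 µg. Ccl4, Serpina3m and Pdpn do not overlap between the 2 doses, and for Saa3 and Lcn2 replicate 5 of each particle lies below the other arrays at 162 µg.

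Chemokines were the other group with large differences. Among the CXC chemokines that attract neutrophils through Cxcr2 was Cxcl5. It ran from -3.85 over 0.22 to 1.40 at 162 µg and from -3.74 over -3.40 to -3.11 at 18 µg. The log2 difference was 3.28 ± 0.47 (9.75-fold, 15.5-fold without the low arrays, adjusted p = 0.000395). At 18 µg Cxcl5 was well above background on 3 of 10 arrays, and at 162 µg on 9 of 10, the exception being the lowest value. Over the other settings of the processing its log2 difference ran from 2.92 to 6.15.

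Cxcl3 was well above background on 0 of 10 arrays at 18 µg and on 8 of 10 at 162 µg. Its log2 ratio to the reference differed by 0.99 (adjusted p = 0.0012), and by 0.785 with normexp and loess values. The highest difference over the other settings of the processing was 3.51, so its size depends strongly on the processing. In the lung channel alone the signal was at least 2.01-fold higher at 162 µg, where the 18 µg arrays are set to their dimmest measured signal or, where higher, to the signal of Cxcl3 itself. That bound holds for this channel and not for the ratio to the reference. Cxcr2 itself, the receptor on neutrophils, was at 0.60, 1.13 and 2.11 against 0.39, 0.55 and 0.84 (0.68 on the log2 scale, 1.60-fold). Its probes gave 0.33 and 1.03. In all, 5 of 8 measured genes of this list were called higher (median log2 difference 0.60). Among them was Cxcl15 (0.52), whose probes gave 0.97 and 0.08. Cxcl1 (0.91), Pf4 (0.15) and Ppbp (0.00) did not pass.

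CC chemokines attract monocytes, lymphocytes and eosinophils. Ccl4 (MIP-1β) separated the doses, with all 10 arrays at 162 µg, -2.20 to 0.97, above all 10 at 18 µg, -3.17 to -2.27. Its log2 difference was 2.26 ± 0.35 (4.80-fold, adjusted p = 0.00061). The vehicle arrays, -2.12 to -1.24, also lay above the 18 µg arrays and above both low arrays at 162 µg, so that the lowest level of Ccl4 was that of the lowest dose. The 18 µg arrays were not tested against the vehicle.

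Ccl7 was at -3.74, -1.04 and 0.50 at 162 µg against -3.88, -3.37 and -2.86 at 18 µg, a difference of 2.06 ± 0.41 (4.17-fold). Its 2 probes gave 2.46 and 1.67. Ccl17, a ligand of the T cell receptor Ccr4, was at 1.51, 3.59 and 4.25 against 1.11, 1.85 and 2.42 (1.62 ± 0.26, 3.08-fold). Ccl12, a monocyte chemokine of mice, was at -0.28, 1.27 and 2.08 against -0.67, -0.31 and -0.13 (1.42 ± 0.22, 2.68-fold). Together 11 of 13 measured CC chemokines were called higher and 0 lower, with a median log2 difference of 1.07. They included Ccl2 (1.91), Ccl3 (1.41), Ccl8 (1.06), Ccl24 (1.06), Ccl9 (0.91), Ccl20 (0.67) and Ccl11 (0.46), and the other two were Ccl6 (0.46) and Ccl5 (-0.23). With the slide as a block, 8 of 13 were called.

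Cytokines upstream and downstream of these chemokines differed less. Il1b (interleukin-1β) was at 2.12, 3.08 and 4.04 at 162 µg and at 1.09, 1.89 and 2.56 at 18 µg, a log2 difference of 1.36 ± 0.27 (2.56-fold, adjusted p = 0.00299). Csf2 (GM-CSF, a growth factor of myeloid cells) was at 1.32, 2.53 and 2.80 against 0.89, 1.20 and 1.47 (1.07 ± 0.17, 2.09-fold). Socs3, which damps cytokine signalling, was 1.51-fold higher. The list of IL-1 and IL-6 family ligands and receptors had 10 of 19 genes called higher and 1 lower, with a median of 0.31. Il6 (0.98), Il33 (0.75), Il1rn (0.46), Tnf (0.37) and Csf1 (0.31) were among the higher ones and Il18 (-0.57) was the lower one. Il1a (0.09), Osm (0.13) and Il11 (-0.11) did not pass. With the slide as a block 5 genes were called higher and 0 lower.

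Targets of NF-kB that restrain or extend its own activity were higher nearly throughout, though none of them passed 2-fold. In this list 10 of 12 measured genes were called higher and 0 lower (median log2 difference 0.50, 6 of 12 with the slide as a block). Nfkbie, an inhibitor of NF-kB, was at -0.50, 0.32 and 0.61 against -0.67, -0.41 and -0.15 (0.63, 1.55-fold). Relb, a subunit of NF-kB, was at -0.36, 0.23 and 0.69 against -0.60, -0.49 and -0.29 (0.62, 1.54-fold). Icam1, which leukocytes bind on endothelium, was at 2.91, 3.32 and 3.46 against 2.50, 2.78 and 3.13 (0.50, 1.42-fold). The remaining called genes were Nfkbiz (0.62), Bcl3 (0.58), Nfkb2 (0.53), Birc3 (0.50), Tnfaip3 (0.41), Tnip1 (0.29) and Nfkbib (0.23), and Nfkbia (0.12) and Zc3h12a (0.22) did not pass.

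Because these genes were higher together, their promoters were searched on both strands for the NF-kB motif, in the window from 250 bases before to 50 bases after the start of RefSeq transcripts (GRCm38.p6). Of 8 called genes of the NF-kB feedback list that have a window, 5 held the motif, as did 2 of 6 called CC chemokines, 2 of 4 called CXC chemokine genes and 0 of 11 called acute phase genes, beside 4.51% of all 32851 windows and 6.24% of the tested genes that have a window. The STAT motif, TTC and GAA with 3 bases between them, was in 1 of 11 called acute phase genes, beside 8.3% of all windows and 8.62% of such tested genes. Of the 1852 called genes 1476 have a window. A match is a description of the letters and not of binding. Of tested members with a window, called or not, 6 of 10 of the feedback list held the NF-kB motif. It was in 2 of 7 CC chemokines, 3 of 7 CXC chemokine genes and 0 of 15 acute phase genes, and the STAT motif was in 3 of 15 acute phase genes. Each list here and below was put together by pathway. A share above that of all windows is therefore no result about the dose. The promoters of Cxcl3 (chr5:90785974-90786093, plus strand) and Nfkbie (chr17:45555539-45555658, plus strand) are shown 5′ to 3′ as examples of a chemokine and an inhibitor with the motif in capitals.
Cxcl3: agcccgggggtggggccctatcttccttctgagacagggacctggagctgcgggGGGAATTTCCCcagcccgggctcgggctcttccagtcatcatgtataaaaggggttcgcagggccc
Nfkbie: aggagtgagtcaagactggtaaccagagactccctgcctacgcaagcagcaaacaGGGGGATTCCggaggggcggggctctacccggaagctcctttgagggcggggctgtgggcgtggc

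Chaperones and enzymes of the endoplasmic reticulum formed another group that was higher at 162 µg. Sdf2l1, a cofactor of the chaperone BiP, was at -1.61, -0.43 and 0.05 at 162 µg, at -2.09, -1.72 and -1.29 at 18 µg and at -2.04, -1.70 and -1.44 with vehicle. Its log2 difference between the doses was 1.18 ± 0.18 (2.26-fold, adjusted p = 0.000544). Manf, a secreted stress protein of the same compartment, was at -1.17, -0.47 and 0.12 against -1.60, -1.30 and -0.91 (0.85 ± 0.14, 1.80-fold). Pdia6, a disulfide isomerase, was at -0.68, -0.11 and 0.25 against -0.81, -0.66 and -0.53 (0.56 ± 0.10, 1.48-fold). At 18 µg all 3 genes were at about their vehicle level, and the spread at 162 µg was wider.

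Of 14 measured genes of the unfolded protein response, 9 were called higher and 1 lower (median log2 difference 0.42, with 8 higher and 0 lower with the slide as a block). Pdia4 (0.82), Hspa5 (BiP itself, 0.56), Calr (calreticulin, 0.46), Creld2 (0.45), Xbp1 (0.39) and Hsp90b1 (0.35) were the other higher genes, and Herpud1 (-0.35) was the lower one. The stress-induced transcription factors Ddit3 (-0.04) and Atf4 (0.03) and their target Trib3 (-0.24) did not pass, nor did Dnajb9 (0.20). Cytosolic heat shock chaperones had 2 of 12 genes called higher and 0 lower, Dnaja1 (0.22) and Hspe1 (0.26), and Hspa1a and Hspa1b were both at -0.01. The call of Hspe1 was lost when any of 13 of the 20 arrays was left out.

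The ER stress element, which is CCAAT and CCACG with 9 bases of any kind between them, was searched on both strands of the same windows. It was found in 0.12% of all windows and in 0.18% of the tested genes that have a window. In the list it was in 5 of 9 called genes and 5 of 13 tested genes with a window. It is shown in capitals in the promoters of these 5 genes, which are on the plus strand for Hspa5 (chr2:34771970-34772089), Pdia6 (chr12:17266440-17266559) and Creld2 (chr15:88819469-88819588) and on the minus strand for Hsp90b1 (chr10:86705483-86705602) and Calr (chr8:84847025-84847144). All are written 5′ to 3′ on the strand of the gene, and where the element lies on the other strand the capitals hold its reverse complement.
Hspa5: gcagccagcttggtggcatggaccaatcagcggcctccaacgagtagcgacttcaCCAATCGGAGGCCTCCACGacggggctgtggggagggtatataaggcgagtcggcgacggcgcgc
Pdia6: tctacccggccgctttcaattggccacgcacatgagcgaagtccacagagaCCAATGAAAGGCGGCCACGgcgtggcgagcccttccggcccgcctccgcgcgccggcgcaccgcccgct
Creld2: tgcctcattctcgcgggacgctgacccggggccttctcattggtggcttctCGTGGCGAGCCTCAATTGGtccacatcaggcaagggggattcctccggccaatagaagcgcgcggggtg
Hsp90b1: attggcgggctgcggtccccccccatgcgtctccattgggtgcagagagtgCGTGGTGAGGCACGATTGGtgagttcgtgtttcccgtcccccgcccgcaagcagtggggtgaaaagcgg
Calr: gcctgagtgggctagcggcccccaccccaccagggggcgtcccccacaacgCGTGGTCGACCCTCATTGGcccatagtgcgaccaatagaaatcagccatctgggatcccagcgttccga

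Genes induced by interferon were moderately higher. Isg15, a ubiquitin-like protein, was at -1.42, -0.48 and 0.89 at 162 µg and at -1.84, -1.37 and -1.13 at 18 µg, a log2 difference of 1.11 ± 0.24 (2.15-fold, adjusted p = 0.00538). Oasl2 was 1.66-fold and Bst2 (tetherin, which holds viruses at the cell surface) 1.36-fold higher. In all, 8 of 13 measured interferon-stimulated genes were called higher and 0 lower (median 0.40). The interferon-induced chemokines Cxcl10 and Cxcl9 were also called. Cxcl10 was at -1.36, 0.50 and 2.54 against -1.89, -1.15 and -0.83 (1.72 ± 0.39, 3.30-fold, adjusted p = 0.0507 with the slide as a block), and Cxcl9 was 1.62-fold higher, measured above background on 5 arrays at 18 µg and on 8 at 162 µg. Their receptor Cxcr3 did not pass (0.25, adjusted p = 0.0926).

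The interferon-stimulated response element was here GAAA, 2 bases of any kind and GAAA on either strand. It was in the windows of 4 of 6 called and 6 of 10 tested genes of the interferon-stimulated list. Its share was 3.44% of all windows and 3.74% of the tested genes that have a window. The promoter of Isg15 (chr4:156200820-156200939, minus strand) is shown because it held 3 matches, which overlap and are in capitals.
Isg15: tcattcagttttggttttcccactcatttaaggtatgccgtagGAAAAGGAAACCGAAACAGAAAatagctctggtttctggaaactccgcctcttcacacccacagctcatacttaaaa

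The 3 genes that were lower by more than 2-fold were Dbp, Per1 and Cidec, and 2 of them belong to the circadian clock. Dbp, a clock-controlled transcription factor, was at -0.39, 0.37 and 1.10 at 162 µg, at 1.10, 1.80 and 2.20 at 18 µg and at 0.66, 1.76 and 1.90 with vehicle. Its groups met at 1.10 and were otherwise apart. The log2 difference was -1.34 ± 0.16 (2.53-fold lower, adjusted p = 7.99e-05). Hlf, of the same family of transcription factors, was at 0.85, 1.24 and 1.74 against 1.72, 1.93 and 2.94 (-0.84 ± 0.15, 1.79-fold lower), and Nr1d2, a repressor in the clock, was at 0.46, 0.93 and 1.28 against 1.28, 1.61 and 1.93 (-0.71 ± 0.10, 1.64-fold lower).

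Per1, a repressor of the clock that is also induced by glucocorticoids, was at -0.82, -0.52 and 0.16 at 162 µg and at -0.65, 0.72 and 1.76 at 18 µg (-1.08 ± 0.21, 2.11-fold lower). Here the vehicle arrays, -0.52, -0.31 and 0.39, lay near the 162 µg arrays, and 9 of the 10 arrays at 18 µg were above the vehicle median. With the slide as a block the adjusted p of Per1 was 0.068. In the clock list, 10 of 14 measured genes were called lower and 0 higher (median log2 difference -0.32, 7 of 14 with the slide as a block). The others were Ciart (-0.56), Per2 (-0.38), Per3 (-0.38), Cry2 (-0.27), Tef (-0.25) and Nr1d1 (-0.21). Arntl (0.58), the activator that these repressors oppose, had a value of the other sign and did not pass, like Npas2 (0.12), Clock (0.10) and Cry1 (-0.03). The E-box CACGTG was in the windows of 3 of 9 called and 4 of 13 tested clock genes, beside 7.15% of all windows. The D-box, TTAT followed directly by GTAA, was in 1 of 9 and 1 of 13, beside 0.94%. Of all tested genes that have a window, 10.62% held the E-box and 0.77% the D-box. The hour of instillation and of killing is not given in the sources used here.

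Cidec, a lipid droplet protein of fat cells and other lipid-storing cells, was at 2.88, 3.36 and 4.78 at 162 µg and at 4.21, 4.55 and 5.09 at 18 µg (-1.03 ± 0.22, 2.04-fold lower). The highest values at 162 µg were those of both low arrays, 4.78 and 4.56. Of 8 measured fat cell genes Cidec alone was called, and the median of the list was 0.12, with Plin1 at 0.16, Adipoq at 0.20 and Plin4 at -0.27. With the slide as a block 2 of 8 were called lower and the median was -0.36. When the processed signals of the scanner software were used, the difference of Cidec was -0.08 and its call was lost.

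Gsta1, a glutathione transferase, was at -1.23, -1.06 and 0.28 against -0.72, -0.02 and 2.61 (-0.97 ± 0.29, adjusted p = 0.0322), and it lost its call when any of 7 arrays was left out. Bcan, a proteoglycan core protein, was at -0.06, 0.31 and 1.42 against 0.54, 1.48 and 2.22 (-0.94 ± 0.20). Rsrp1 was at -1.81, -0.34 and 0.30 against -0.10, 0.49 and 0.77 (-0.87 ± 0.17), with the vehicle at -0.33, -0.15 and 0.34. Rnase2a, a ribonuclease of the eosinophil family, was at 3.64, 4.95 and 6.02 against 5.21, 5.74 and 6.40 (-0.86 ± 0.24). In each of these genes the ranges of the doses overlapped.

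**Figure D2:**
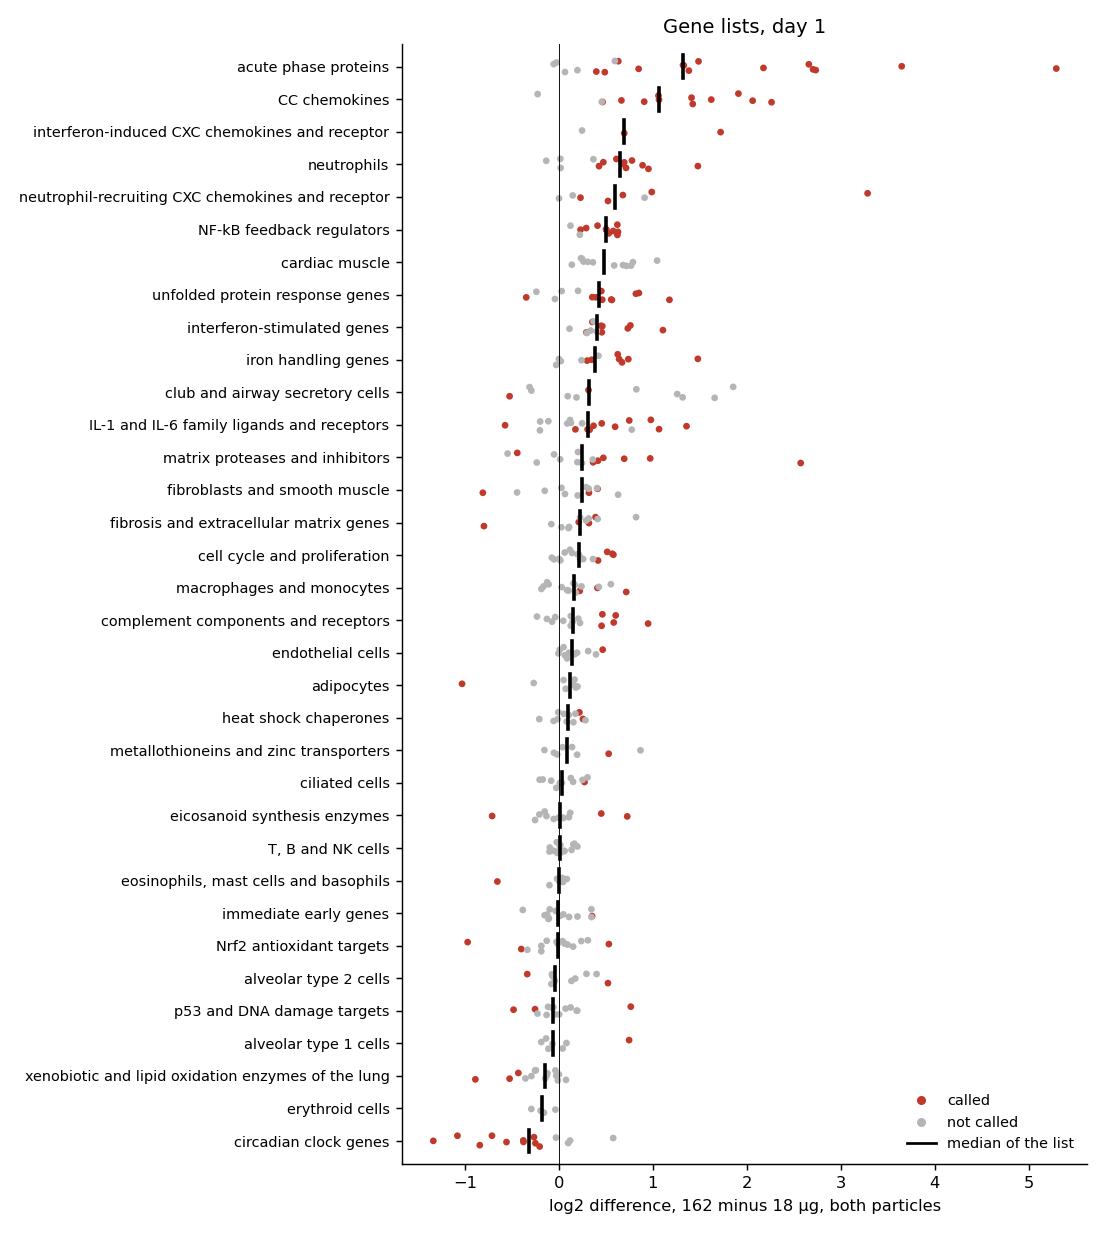
Log2 difference between 162 and 18 µg on day 1, both particles pooled (horizontal axis), for each measured gene of each list (rows, ordered by their median). Red points are called genes, grey points are not called, and the black bar is the median of the list. Acute phase proteins (14 of 19 called) and CC chemokines (11 of 13) lie farthest to the right, and circadian clock genes (10 of 14) farthest to the left.

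Outside the acute phase and chemokine genes, the largest increase was that of Slc26a4 (pendrin, an anion exchanger of airway epithelium). It was at 1.44, 5.26 and 5.56 at 162 µg, at 0.90, 2.18 and 2.72 at 18 µg and at 1.71, 2.26 and 3.86 with vehicle. The difference was 2.86 ± 0.42 (7.26-fold, 10.4-fold without the low arrays). Timp1, an inhibitor of matrix proteases, was at -2.69, 0.44 and 1.41 against -2.97, -2.47 and -2.09 (2.57 ± 0.42, 5.95-fold), with 1.97 and 3.18 for its 2 probes. Ly6f, a surface protein of the Ly6 family, was at 0.20, 3.04 and 3.60 against 0.11, 0.31 and 0.61 (2.31 ± 0.34, 4.95-fold). For all 3 genes the lowest array at 162 µg was NRCWE-001 replicate 5.

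Among matrix proteases and their inhibitors, 6 of 15 were called higher and 1, Timp3 (-0.44), lower. Mmp8, the collagenase of neutrophils, had all arrays at 162 µg, 1.35 to 2.14, above those at 18 µg, 0.71 to 1.22 (0.69 ± 0.10, 1.62-fold). Mmp12, the elastase of macrophages, was well above background on 0 of the 18 µg arrays and on 7 of those at 162 µg. Its difference was 0.36 in the log2 ratio and at least 1.30-fold in the lung channel alone. Over 34 settings the log2 difference ran from 0.20 to 2.06, and the call was lost in 2 of them. Mmp3 (0.97), Mmp9 (0.47) and Mmp19 (0.42) were also called. Genes of fibrosis and extracellular matrix had 3 of 13 higher, Tnc (0.39), Col1a1 (0.32) and Tgfb1 (0.21), and 1 lower, Ccn2 (-0.80), a growth factor of connective tissue. The call of Col1a1 was lost when any of 14 arrays was left out.

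Iron handling genes had 7 of 12 members called higher and 0 lower (median log2 difference 0.38). Fth1, the heavy chain of ferritin, was at 0.31, 0.89 and 1.08 against -0.26, 0.10 and 0.43 (0.67, 1.59-fold). Steap4, a metal reductase, was 1.67-fold and Tfrc, the transferrin receptor, 1.56-fold higher. The others were Ltf (lactoferrin, 1.48), Trf (0.63), Slc11a1 (0.35) and Slc40a1 (0.30). Complement had 5 of 15 genes called higher, led by C3 (0.95, 1.93-fold), with C1qb (0.58), Cfb (0.60), Cfi (0.46) and C1ra (0.45), and with the slide as a block 2 were called.

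Cell cycle genes had 5 of 17 members called higher and 0 lower. The 5 were Mcm6 (0.58), Mcm2 (0.57), Pcna (0.51), Mcm5 (0.42) and Cdc6 (0.24), all of which act in the replication of DNA. None of the mitotic genes of the list passed, among them Mki67 (0.22), Cdk1 (0.12), Top2a (-0.08), Ccnb1 (-0.05) and Plk1 (0.02). Of eicosanoid enzymes, Ptges (prostaglandin E synthase, 1.66-fold) and Ptgs1 (1.37-fold) were higher and Ltc4s (leukotriene C4 synthase) was 1.64-fold lower among 14.

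The lists of toxic stress held calls in both directions, which are read beside 7.49% of all genes higher and 4.23% lower. Nrf2 antioxidant targets had 1 of 15 genes higher, Hmox1 (0.53, 1.45-fold), and 2 lower, Gsta1 and Gstm1 (-0.40), while Nqo1 (-0.13), Gclm (-0.03), Gclc (0.31) and Srxn1 (0.06) did not pass. The antioxidant response element, TGAC and GC with 3 bases between them, was in 7 of 12 tested members with a window and 0 of 2 called ones. Its share was 16.41% of the tested genes that have a window. Targets of p53 had 1 of 15 higher, Gadd45g (0.76), and 2 lower, Sesn2 (-0.48) and Polk (-0.25), and Cdkn1a (0.12) and Mdm2 (-0.12) did not pass. Immediate early genes had 1 of 14 higher, Egr2 (0.35), and metallothioneins and zinc transporters 1 of 8, Slc39a14 (0.53). Egr2 lost its call when any of 11 arrays was left out, and 0 immediate early genes were called with the slide as a block. Mt2 ran from -3.40 to -0.41 at 162 µg and from -3.52 to -0.15 at 18 µg and did not pass (0.87, adjusted p = 0.167). It was called without the low arrays (1.22, adjusted p = 0.0245), a choice made after the data were seen. With the slide as a block it was not called (0.75, adjusted p = 0.417). Xenobiotic enzymes of the lung had 3 of 15 genes lower, among them Aldh1a1 (-0.52) and Ephx1 (-0.43), and 0 higher. The call of Ephx1 was lost when any of 16 of the 20 arrays was left out. For the Nrf2 and p53 lists, counts were 3 higher and 4 lower and 2 higher and 3 lower without the low arrays, but 1 higher and 0 lower and 0 in either direction with the slide as a block. The xenobiotic list had 5 of 15 lower under either setting.

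The study drew gene lists called biclusters from other lung disease data, and 3 of them were set against the doses. Bicluster 3, from models of lung injury, infection and fibrosis, had 10 of 16 measured members called higher and 0 lower (median log2 difference 0.65), led by Slc26a4, Ccl2 and Cyp7b1 (1.42, an enzyme that hydroxylates oxysterols). Bicluster 7 had 6 of 17 higher, Cxcl10, Ccl3, Fxyd4 (0.99), Clec5a (0.60), Il1rn (0.46) and Syt12 (0.42), beside a median of 0.12. The probes of Clec5a gave 0.17 and 1.03. Bicluster 10 had 4 of 16 lower, Pcolce2 (-0.55), Gpr155 (-0.46), Omd (-0.41) and Tnxb (-0.33). With the slide as a block these counts were 7, 3 and 1, and Omd and Tnxb lost their calls when any of 10 and of 7 single arrays was left out. The lists share members with those above.

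Neutrophil markers moved with these groups. Of 14 measured markers 10 were called higher and 0 lower (median log2 difference 0.65), among them Csf3r (the G-CSF receptor, 0.71), Mmp8 (0.69), Cxcr2 (0.68), Clec4d (0.95), Retnlg (0.89), S100a8 (0.78) and Trem1 (0.43). Genes of the granules laid down in the bone marrow were near 0, with Ngp at 0.01, Camp at 0.02 and Mpo at -0.14, while the granule gene Ltf was at 1.48. The mean log2 ratio over the 14 markers was 0.74, 1.33 and 1.85 at 162 µg (lowest, median and highest), 0.53, 0.71 and 0.94 at 18 µg and 0.56, 0.68 and 0.95 with vehicle. It was 0.74 in NRCWE-001 replicate 5 and 1.15 in NRCWE-002 replicate 5, the arrays that were low for Saa3. In whole lung, more cells of a type and more RNA per cell cannot be told apart, and the part of neutrophils in the other results was not tested.

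Macrophage and monocyte markers had 3 of 16 higher, and 6 higher and 1 lower without the low arrays. Ly6c2, of inflammatory monocytes, had all arrays at 162 µg, 2.61 to 2.89, above those at 18 µg, 1.96 to 2.55 (0.41 ± 0.06, 1.33-fold). Ms4a6d was 1.64-fold and Cx3cr1 1.17-fold higher, the latter lost when any of 8 arrays was left out. The probes of Cx3cr1 gave 0.06 and 0.38. The markers of resident macrophages Marco (0.55), Mrc1 (-0.16), Chil3 (-0.13) and Adgre1 (-0.11) did not pass. None of 15 markers of T, B and NK cells was called by limma, with 1 at an unadjusted p below 0.05 and differences from -0.10 to 0.20. Of eosinophil, mast cell and basophil markers 1 of 7 was lower, Siglecf (-0.66), which alveolar macrophages also carry, and it lost its call when any of 14 arrays was left out.

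Of the markers of the lung's own cells, Pdpn had the smallest p. Pdpn (podoplanin, on alveolar type 1 and lymphatic cells, and inducible in macrophages) was at 0.40 to 1.04 on the 10 arrays at 162 µg and at -0.20 to 0.25 on those at 18 µg, with no overlap (0.75 ± 0.08, 1.68-fold, adjusted p = 2.4e-05). The other alveolar type 1 markers did not pass, with Hopx at -0.19, Clic5 at -0.14, Aqp5 at 0.08 and Ager at -0.07. Among 11 type 2 markers Cxcl15 was higher (0.52) and Sftpc lower (-0.34), both lost when any of 4 and of 7 arrays was left out. The 2 probes of Cxcl15 disagreed, at 0.97 and 0.08, and with the slide as a block its difference was 0.28. Muc5ac (0.31) was higher and Aldh1a1 lower among 11 airway secretory genes. The probes of Muc5ac disagreed, at 0.57 and 0.06, and its call was lost in 4 of 35 settings. Muc5b, the main airway mucin, ran from 0.44 to 5.39 at 162 µg and from 0.45 to 4.27 at 18 µg and did not pass (1.66, adjusted p = 0.0944). It was called without the low arrays (1.96, adjusted p = 0.0269), a choice made after the data were seen. With the slide as a block it was not called (1.08, adjusted p = 0.089). Among 11 ciliated cell genes Tubb4b (0.27) was higher, among 12 endothelial genes Car4 (0.47), and among 12 genes of fibroblasts and smooth muscle Tagln (0.41) and Col1a1, while Dcn (-0.81) was lower. The counts of these lists are read beside 7.49% of all genes higher and 4.23% lower. With the slide as a block 0 ciliated and 0 endothelial genes were higher and 1 ciliated gene was lower. Tubb4b and Car4 each lost their call when any of 10 arrays was left out.

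Heart muscle genes varied widely between arrays. Their mean log2 ratio over 12 genes ran from -0.01 to 3.74 at 162 µg and from 0.06 to 2.83 at 18 µg, and 0 of 12 were called by limma, with 0 at an unadjusted p below 0.05. With NRCWE-002 it was 0.62 to 2.94 on the 5 arrays at 162 µg but 0.06 to 0.13 on 4 of the 5 at 18 µg, and 1.70 on the other, so that the arrays of this particle overlapped in part. The median log2 difference of these genes was 1.28 for NRCWE-002 and -0.06 for NRCWE-001. Adipocyte genes had medians of 0.44 and -0.32, respectively. The part of such tissue in other genes was not tested.

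The particles were next compared by the difference between their dose effects. Within NRCWE-001, 302 genes (1.91%) were called between 162 and 18 µg, 198 higher (1.25%) and 104 lower (0.658%). Within NRCWE-002, 678 genes (4.29%) were called, 440 higher (2.78%) and 238 lower (1.51%). Both shared 122 genes, 40.4% of the first and 18.0% of the second list, and all of these had the same direction. Both counts moved with single arrays, from 55 to 880 within NRCWE-001 and from 89 to 1118 within NRCWE-002 when 1 array was left out, the highest of each without its low replicate 5 at 162 µg. With the slide as a fixed block 0 genes were called within NRCWE-002 by limma, with 1953 at an unadjusted p below 0.05. Only replicates 1 and 3 of NRCWE-002 at 162 µg shared a slide with its 18 µg arrays. That setting thus had few pairs of arrays to compare and cannot decide how many genes differ. With 5 arrays per dose, 1134 of the 1852 pooled calls were called in neither particle alone. No gene was called by limma for a difference between the particles, at 890 of 15803 with an unadjusted p below 0.05. That does not show that the particles act alike, since the 95% interval of the difference had a median width of 0.28 log2 units to each side, and 124 genes had a difference above 1 in size.

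For Saa3, the arrays at 162 µg were at 4.25, 3.61, 4.23, 5.02 and -3.74 with NRCWE-001 and at 3.34, 4.26, 4.30, 3.72 and -0.65 with NRCWE-002. At 18 µg they were at -0.45, -1.92, -3.62, -2.30 and -1.53 with NRCWE-001 and at -2.14, -3.62, -2.98, -3.04 and -2.99 with NRCWE-002. The 18 µg arrays of NRCWE-001 reached higher and the 162 µg arrays of both particles were alike except for their low members. The dose effect was 4.64 for NRCWE-001 and 5.95 for NRCWE-002 on the log2 scale, and the second exceeded the first by 1.31, with a 95% interval of -2.43 to 5.05. Within NRCWE-001 alone Saa3 was not called (adjusted p = 0.0623), and within NRCWE-002 it was (adjusted p = 0.0184).

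Other lead genes gave narrower intervals. The dose effect of Lcn2 was 0.35 higher for NRCWE-002 (95% interval -1.39 to 2.08), that of Cxcl5 0.43 higher (-1.58 to 2.45), that of Saa1 0.03 higher (-2.49 to 2.55) and that of Ccl4 different by -0.65 (-2.11 to 0.81). For Pdpn both particles gave 0.75, and the interval was -0.33 to 0.33, so that a difference beyond 0.33 lies outside it. Serpina3m was at 1.27 and 1.70 (difference 0.43, -0.19 to 1.04). All of these intervals hold 0.

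Dbp had the interval that lay farthest from 0 among 19 genes with the largest changes. At 162 µg it was at 1.00, 0.41, 0.37, 0.79 and 1.10 with NRCWE-001 and at -0.39, 0.00, 0.35, 0.23 and 0.37 with NRCWE-002, and at 18 µg at 2.04, 1.10, 1.75, 1.85 and 1.67 and at 2.20, 1.69, 1.93, 1.90 and 1.47, respectively. The decrease was -0.95 with NRCWE-001 and -1.73 with NRCWE-002, a difference of -0.78 with a 95% interval of -1.34 to -0.22 that did not survive adjustment over all genes (adjusted p = 0.802). Per1 had its larger decrease with NRCWE-001 (-1.47 against -0.69, interval of the difference -0.02 to 1.59).

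**Figure D3:**
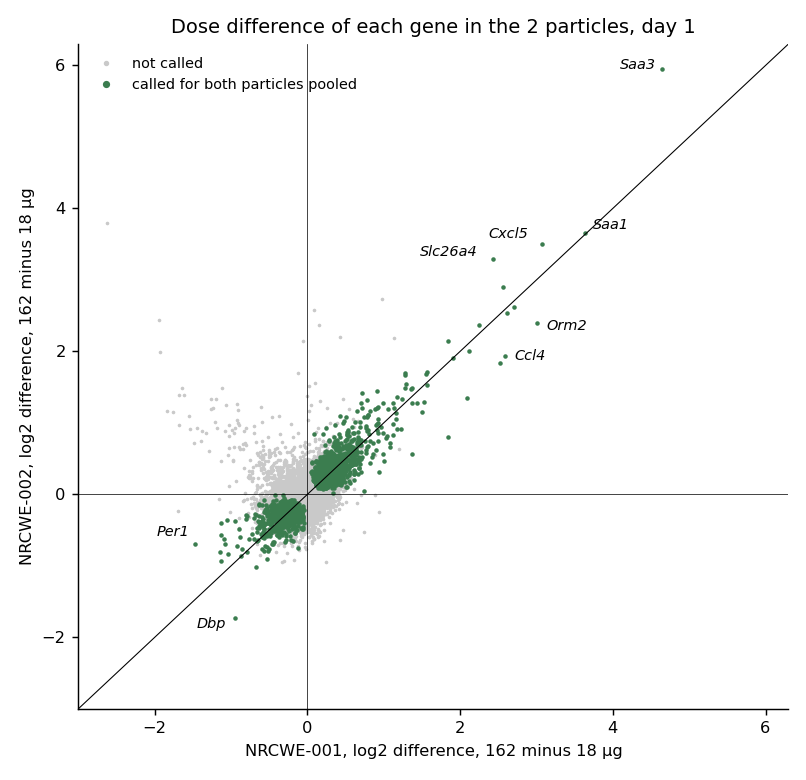
Log2 difference between 162 and 18 µg on day 1 for each of 15803 genes with NRCWE-001 (horizontal axis) and NRCWE-002 (vertical axis). Green points are the 1852 genes called with both particles pooled, grey points are the others, and the line marks equal differences. Saa3, Saa1 and Cxcl5 are at the upper right and Dbp and Per1 at the lower left.

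Some slides held both doses, which allows a comparison free of differences between slides. On 7 slides 1 array at 162 µg lay beside 1 at 18 µg, with the same particle on 6 of them and with NRCWE-001 replicate 5 at 162 µg beside NRCWE-002 at 18 µg on the other. Of the 1183 higher genes 530 were higher on all 7 slides, beside 5.59% of all genes tested, and of the 669 lower genes 287 were lower on all 7, beside 3.84%. These counts use the same arrays as the test and are a description. Pdpn was higher by 0.57 to 1.07 on the 7 slides, Serpina3m by 0.65 to 1.81, Ccl4 by 0.37 to 3.89 and Sdf2l1 by 0.37 to 1.67, and the differences of Dbp ran from -2.58 to -0.69. Saa3 was higher by 4.70 to 7.86 on the 6 slides with the same particle and was at -0.70 on the other, and Lcn2 was at 2.61 to 3.84 and at -0.65. When the slide with NRCWE-001 replicate 5 was left out, 2092 genes were called.

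**Figure D4:**
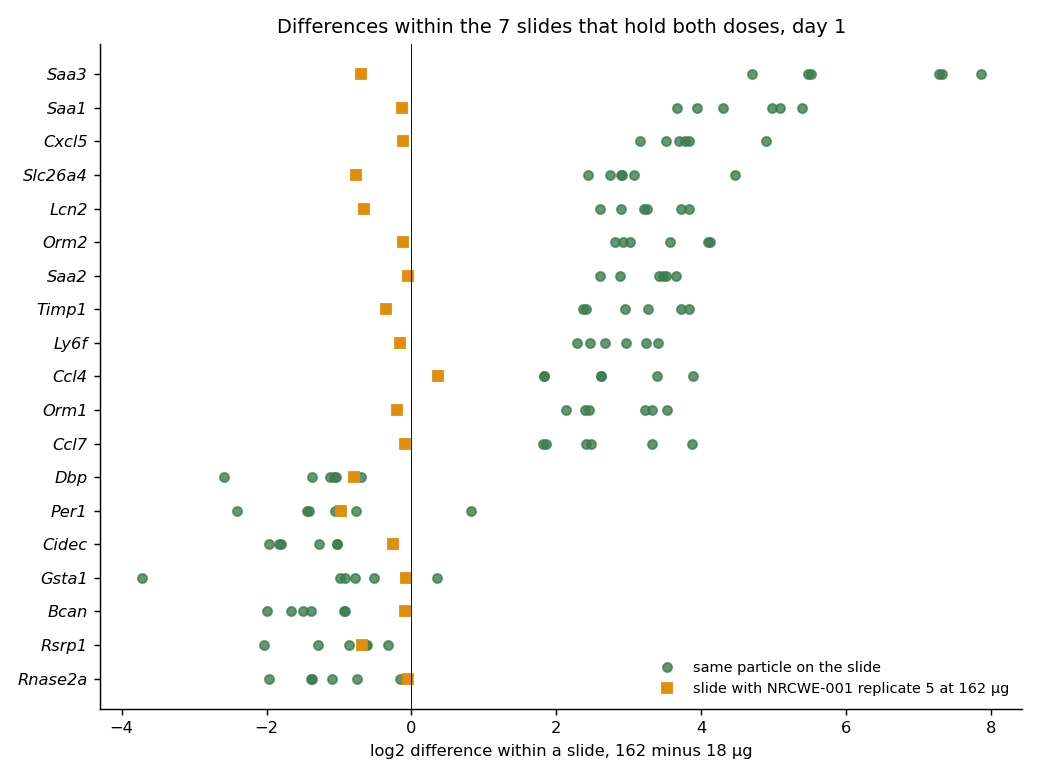
Log2 difference between the array at 162 µg and the array at 18 µg of the same slide (horizontal axis) for 19 genes with the largest changes (rows), day 1. Green points are slides with the same particle at both doses and the orange square is the slide with NRCWE-001 replicate 5. The green points of Saa3 lie between 4.70 and 7.86 and its square at -0.70.

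The middle dose against the vehicle gave a comparison that shares no array with 162 against 18 µg. Here 86 of 15165 genes (0.567%) were called, 40 higher (0.264%) and 46 lower (0.303%) at 54 µg. Of these, 39 were also among the 1852, all in the same direction. Of the 1845 genes called between 162 and 18 µg that were tested here, 69.9% had the same sign, beside 50.4% of the genes not called. Called in both were Lcn2 (2.55 ± 0.53 between 54 µg and vehicle), Ly6f (1.85), Noxo1 (1.76, an organiser of NADPH oxidase), Hpx (1.24), Cp (1.16) and Nfkbiz (0.71), and on the lower side Ear1 (-1.07), Bcan (-0.94), Siglecf (-0.83), Rnase2a (-0.76), Cidec (-0.75) and Ltc4s (-0.53). Saa3 was higher by 4.80 ± 1.08 and was not called (adjusted p = 0.0621), with the 54 µg arrays running from -4.16 to 4.56.

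The clock genes and Ccl4 did not pass between 54 µg and vehicle. Dbp was at -0.47 ± 0.21 (adjusted p = 0.34), and Per1 was at 0.48 ± 0.18, a value opposite in sign to that between 162 and 18 µg. Ccl4 was at 0.68 ± 0.42. Calr (0.46) was the 1 unfolded protein response gene of the list called here, while Sdf2l1 was at 0.73 ± 0.20 (adjusted p = 0.117). When vehicle replicate 1 was left out of this comparison, 0 genes were called by limma, with 1817 at an unadjusted p below 0.05, and without NRCWE-001 replicate 4 at 54 µg 135 genes were called.

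On day 28 the same contrast of 162 against 18 µg was smaller in size for each of 19 genes with the largest changes, which had been picked for their size on day 1. For 63 of 17207 genes (0.366%) the dose effects of the days differed, 46 with a higher (0.267%) and 17 with a lower value (0.0988%) on day 1. Of the 63 genes 60 had been called on day 1, from the same day 1 arrays. Saa1 differed between the doses by 3.65 on day 1 and by 0.60 on day 28, a difference of 3.05 ± 0.68 (adjusted p = 0.0288). This call was lost in 8 of 53 settings, 4 of them with a single array left out (at 162 µg on day 1, NRCWE-001 replicate 3 or 4 or NRCWE-002 replicate 2, and at 18 µg on day 28, NRCWE-002 replicate 1). On day 28 its arrays ran from -0.96 to 1.46 at 162 µg and from -0.93 to 0.45 at 18 µg, overlapping. Saa2 (2.66 and 0.13, a difference of 2.52 ± 0.44) and Timp1 (2.57 and 0.20, 2.37 ± 0.52) followed. Orm2, Orm1, Serpina3m, Serpina3n and Hpx were also called. Saa3 was at 5.29 on day 1 and at 1.21 on day 28, and its difference of 4.08 ± 1.19 did not pass (adjusted p = 0.148).

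The genes that differed between the days included genes of the endoplasmic reticulum and of the secretory pathway, picked here after their values were known and not counted against a background. Sdf2l1 was at 1.18 on day 1 and at -0.02 on day 28 (1.20 ± 0.25), Manf at 0.85 and -0.17 (1.02 ± 0.18) and Pdia6 at 0.56 and -0.01 (0.57 ± 0.13). Hspa5 (0.61), Creld2 (0.57), Kdelr2 (0.64, a receptor that retrieves proteins to the endoplasmic reticulum), Surf4 (0.47), Ergic1 (0.45), Rpn1 (0.40), Sec23b (0.39) and Sar1a (0.29) were called with these differences between the days. The median of the unfolded protein response list was 0.42 on day 1 and -0.05 on day 28. Pdpn was at 0.75 and -0.02 (0.76 ± 0.12).

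Among the chemokines, Ccl17 was at 1.62 on day 1 and at -0.65 on day 28 and Ccl24 at 1.06 and -1.22, and both differed between the days (2.27 ± 0.47 and 2.29 ± 0.53). Cxcl5 was at 3.28 and 1.88, Ccl4 at 2.26 and 1.27 and Ccl7 at 2.06 and 1.18, and none of these 3 passed the test of the difference between the days. Ly6f was at 2.31 and 1.82 and Slc26a4 at 2.86 and 1.43, also without passing.

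Interferon-stimulated genes had the larger median on day 28, 1.15 beside 0.40 on day 1. Isg15 was at 1.11 on day 1 and at 1.60 on day 28, Oasl2 at 0.73 and 1.33 and Cxcl10 at 1.72 and 2.06, and none of these differences between the days passed the test, with adjusted p of 0.889, 0.753 and 0.959. Clock genes had a median of -0.32 on day 1 and of -0.28 on day 28, with Dbp at -1.34 and -1.12 and Hlf at -0.84 and -1.02. Lower on day 1 than on day 28 were Rsrp1 (-0.87 and 0.29, -1.15 ± 0.26, lost in 9 of 53 settings) and Naip5, a sensor of bacterial flagellin (-0.46 and 0.29, -0.75 ± 0.14). Of all 1852 genes called on day 1, 61.2% had the same sign on day 28, beside 51.9% of the genes not called.

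**Figure D5:**
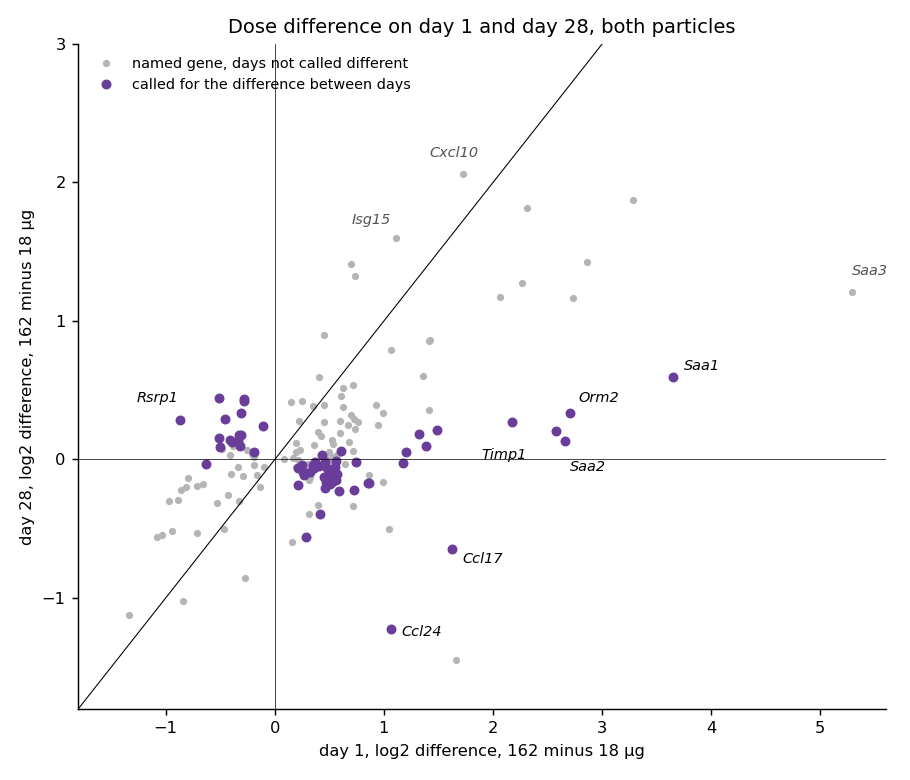
Log2 difference between 162 and 18 µg with both particles pooled on day 1 (horizontal axis) and on day 28 (vertical axis). Purple points are the 63 genes called for a difference between the days, grey points are other named genes, and the line marks equal differences. Saa1, Saa2, Orm2 and Timp1 lie far below the line and Cxcl10 and Isg15 near or above it.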

How the data were processed

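RNA of each mouse lung was hybridised with Universal Mouse Reference RNA on 2-colour Agilent arrays. The authors deposited scanner output (Agilent Feature Extraction 11.0.1.1) with linear spot intensity, flags for spots above background and a log10 ratio of processed signals, and a table of log2 ratios of lung to reference, normalised by the authors within each array by LOWESS. These deposited log2 ratios were used. Their direction and scale were checked on each array against the ratio of median signals (r of 0.918 to 0.995). Dyes were not swapped, so a level is open to dye bias, which a difference between doses shares.

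Of 41174 probes, 27479 (66.74%) matched a symbol through their accession in a RefSeq table of GRCm38.p6, used for names only, and the others are not used here. A probe was kept if well above background in the lung channel on at least 5 arrays of the comparison, and a gene took the median of its probes. Genes were tested 2-sided with limma 3.58.1 in R 4.3.3 (Benjamini-Hochberg, adjusted p below 0.05): 162 against 18 µg with the particle as a term, the same within each particle and their difference from 4 group means, 54 µg against vehicle, and the difference between the days from 8 group means. Each array is 1 mouse, and the number of arrays limits the precision. Replicates were numbered in accession order.

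Named were the 12 genes called higher and the 8 called lower with the largest difference, up to 3 genes per list by p, and the 3 genes with the largest difference between the days in each direction. A few of these genes are not reported here. Genes beyond this rule were named after their values were seen. The comparison, the lists and the markers were chosen with earlier results of these data known. A gene not above background on any array of a dose is given as a bound, computed from the lung channel after normexp (offset 50), loess and Aquantile. Alternatives covered other values (normexp and loess, processed signals, median centring, quantile), slide and scan day blocks, all 69 arrays, filters, the brightest probe, no particle term and each array left out. Leaving out both low arrays, or the slide of NRCWE-001 replicate 5, was chosen after seeing the data. The random slide block estimated its correlation on every 5th gene. Tests were checked on simulated data.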

Additional observations from a re-analysis of the deposited data

Results flagged for a closer look

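Among 19 genes with the largest changes, 20 of 76 groups of 5 arrays held an array far from the others, where about 4 would be flagged by chance. NRCWE-001 replicate 5 at 162 µg accounted for 9 of them and was low in each, with log2 ratios of -3.74 for Saa3, -0.86 for Saa1, -3.85 for Cxcl5, 1.44 for Slc26a4, 0.91 for Lcn2, 0.36 for Orm2, -0.0087 for Saa2, -2.69 for Timp1 and 0.20 for Ly6f. NRCWE-002 replicate 5 at 162 µg accounted for 8, with -0.65 for Saa3, -0.0087 for Saa1, 4.00 for Slc26a4, 2.57 for Lcn2, 0.88 for Orm2, 0.66 for Saa2 and 0.26 for Orm1, which were low, and -0.42 for Gsta1, which was high. At 18 µg NRCWE-001 replicate 5 was low for Slc26a4 (0.90), NRCWE-001 replicate 2 was high for Gsta1 (2.61), and NRCWE-002 replicate 5 was low for Per1 (-0.65).

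The difference between 162 and 18 µg, taken with its sign, was higher on day 1 than on day 28, by the test of the difference itself, for Saa1 (3.05), Saa2 (2.52), Timp1 (2.37), Orm2 (2.37), Ccl17 (2.27), Orm1 (1.91), Serpina3m (1.27), Sdf2l1 (1.20), Hpx (1.14), Manf (1.02), Tagln (0.81), Pdpn (0.76) and Pdia6 (0.57), on the log2 scale. Tagln was at 0.41 on day 1 and at -0.40 on day 28, about the same size with the other sign. Ccl17 also changed sign, from 1.62 to -0.65. It was lower on day 1 for Rsrp1 (-1.15) and Naip5 (-0.75). Hsph1 differed between the days by 0.84 without being called on day 1.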

How the results depend on the processing

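Of 92 called genes recomputed in up to 35 settings, 50 kept their call in each setting that could test them, and 0 changed sign. With only genes well above background on all arrays, 84 of the 92 could be tested. Cxcl5, Orm1, Orm2 and Cxcl3 were among those that could not. The slide as a fixed block lost 21 of the 92. Calls of Cidec, Bcan and Rnase2a were lost with the processed signals. Myl7, a heart muscle gene that was not called (1.05), had -0.011 with scan day as a block. The number of genes called between 162 and 18 µg, 1852, was 1124 with the slide as a fixed block (882 shared) and 1029 in a fit of all 69 arrays, and 63.9% of its calls were higher (58.1% with quantile normalisation, 71.3% with normexp). Leaving out single arrays gave 1398 to 2362.

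Within NRCWE-001 (302) counts were 96 with processed signals, 136 with the slide as a fixed block, 778 as a random block, 1566 as a fixed block over all 69 arrays, 550 with scan day as a block and 1060 without the low arrays. They were 55 to 880 with single arrays left out (55 without replicate 3 and 880 without replicate 5 at 162 µg), and each array except replicate 2 at 18 µg moved them by over 1.5 times. Within NRCWE-002 (678) counts were 0 with the slide as a fixed block (1953 at an unadjusted p below 0.05), 89 with scan day, 279 over all 69 arrays and 1424 without the low arrays, and 89 to 1118 with single arrays left out (89 without replicate 2 and 1118 without replicate 5 at 162 µg), moved by over 1.5 times by each array except replicate 1 at 162 µg. The slide block had few pairs of arrays of NRCWE-002 to compare, as said above. The share of higher calls within NRCWE-002 was 64.9%, against 78.8% with normexp and 51.9% with quantile normalisation. The difference between particles gave 0 to 1 genes with single arrays left out, 1 without NRCWE-001 replicate 4 at 18 µg.

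For 54 µg against vehicle (86) counts were 20 with normexp, 10 with processed signals, 35 with quantile normalisation, 361 with slide or scan day as a fixed block, 628 with the slide as a random block, 324 over all 69 arrays with the slide, 7 over all 69 arrays, 52 without a filter and 0 to 135 with single arrays left out, moved by over 1.5 times by each array except NRCWE-002 replicate 2 (97) and NRCWE-001 replicate 5 (75). Its higher calls were 46.5%, and 29.9% with median centring. The difference between the days (63) gave 29 with processed signals, 216, 531 and 1044 with the slide as a fixed block, as a random block and as a fixed block over all 69 arrays, 587 with scan day, 129 over all 69 arrays, 304 without the low arrays and 38 to 176 with single arrays left out (at 162 µg, 38 without NRCWE-002 replicate 2, 176 without NRCWE-001 replicate 5 and 133 without NRCWE-002 replicate 5 on day 1, and 116 without NRCWE-002 replicate 2 and 96 without NRCWE-001 replicate 1 on day 28). Where counts moved, the cause was not tested. No paired analysis was possible because the labels give replicates no number shared between groups. Arrays were matched by slide only, through the slide blocks and the slides that hold both doses.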
